A study of Mus musculus with 4 samples.

Results

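AP-1 subunits and immediate early transcription factors are described here in NK cells with and without TNFR2, through the transcripts of Fos, Fosb, Jun, Junb, Jund, Batf, Batf3, Atf3, Egr1 and Nr4a1. These 10 genes were taken by symbol from the 35798 genes named in the table, by a rule that uses no measured value, although the group was put together with earlier results of these data known. All 10 passed the filter on low counts, as did 13822 genes in all. RNA was sequenced in bulk from Ly49H+ NK cells, which carry the receptor that recognizes MCMV-infected cells, after wild-type cells marked with CD45.1 and TNFR2 KO cells marked with CD45.2 had been placed together in NSG mice. The hosts were infected with MCMV a day after the transfer, and the cells were sorted from their spleens on D3.5. Each genotype had 2 libraries. A pool of spleens from 3 mice supplied 1 library of each genotype, and these carry the same replicate number. The duplicates belong to 1 experiment, so every p-value below measures the spread between these pools, which may be technical. The TNFR2 KO donors came from a line that lacks the receptor in all cells rather than in NK cells alone, and the mice were 6 to 12 weeks old. The labels give no strain for the donors, and the methods name C57BL/6 as the wild-type strain in general. NSG hosts have no T, B or NK cells of their own but keep myeloid, granulocytic and erythroid cells. Since genotype, CD45 allele and sort gate were the same split of the cells, their effects cannot be told apart.

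AP-1 is a dimer of a Fos and a Jun protein, or of 2 Jun proteins, joined through a basic leucine zipper (bZIP) and bound to short DNA sites related to the phorbol ester response element. Fos, Fosb, Jun, Junb, Egr1, Nr4a1 and Atf3 are classed as immediate early genes, which are transcribed soon after receptors activate MAP kinases and calcium signalling and whose messages are short-lived. Batf and Batf3 pair with Jun proteins and, together with IRF4 or IRF8, occupy composite sites in lymphocytes and dendritic cells. In NK cells activating receptors such as Ly49H and cytokine receptors feed these pathways, and TNFR2 signals through TRAF adaptors to NF-κB and JNK, the kinase of Jun.

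Total counts were 37147543 and 36118966 for wild-type and 39543464 and 32713054 for TNFR2 KO. Levels are given as CPM, which relates a count to the size of its library after scaling with edgeR's TMM factors, and each difference as a log2-fold change (TNFR2 KO relative to wild-type) with its standard error (SE) and the Benjamini-Hochberg adjusted p of edgeR's quasi-likelihood test across all 13822 genes. Tnfrsf1b, the targeted gene that encodes TNFR2 (chr4:145213463-145246870, minus strand, GRCm38), was read to check the labels. Wild-type libraries held it at 264.7 and 268.6 CPM, and those of TNFR2 KO at 55.1 and 58.6 CPM, a log2-fold change of −2.23 (SE 0.0352, adjusted p = 1.35e-13). What supplied the level left in TNFR2 KO, 0.213 of that in wild-type, was not tested. Macrophage or monocyte markers, described below, had a median of −2.89, so the fall of Tnfrsf1b alone does not settle the genotype. The NK markers Ncr1 and Klra8, which encodes Ly49H, were present in every library. Ncr1 lay at 258.3 and 255.5 CPM in wild-type while TNFR2 KO had 511.3 and 510.5 CPM. Markers of cells that the sort should remove were present too. The summed level of 35 macrophage or monocyte markers was 4418 to 4483 CPM in wild-type and 2456 to 2459 CPM in TNFR2 KO, and 31 of them were lower in TNFR2 KO. The 4 higher ones were Ccr2, Ly6c2, Itgax and Cx3cr1, and without these the sum was 3331 to 3354 CPM in wild-type and 494.6 to 502.2 CPM in TNFR2 KO. These 4 genes were left out because they rose, so the second sum had to fall more than that of the whole list. Summed levels of neutrophil or granulocyte precursor markers were 1076 to 1093 against 108 to 113 CPM, with all 18 tested genes lower. Mast cell or basophil markers summed to 1283 to 1286 against 103.2 to 103.3 CPM, with 11 of 12 lower, and erythroid markers to 381 to 389 against 135.2 to 140.02 CPM, with all 11 lower. T cell markers were abundant in every library, with sums of 1621 to 1638 against 1532 to 1566 CPM, and of 13 genes 7 were lower and 3 higher. Cd4 went from 274.1 and 270.4 to 185.6 and 184.9 CPM (log2-fold change −0.56), Trac from 122.7 and 122.2 to 97.0 and 97.5 CPM (−0.33), and Trbc1 from 173.7 and 170.6 to 245.5 and 257.9 CPM (0.55 under TMM). Of 11 B cell markers 5 could be tested, with 2 lower and 2 higher. No gene of these lists was at 0 in every library. NK lineage genes moved the other way, with 40 of 44 higher and a median log2-fold change of 0.77. What part these cells played in the differences below was not tested, and in bulk RNA fewer cells of a type and less RNA per cell cannot be told apart.

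Batf3 and Atf3 were the genes of this group that differed most, and both were lower in TNFR2 KO. Fos, Fosb, Jun and Egr1 were lower by small but measurable amounts, and Junb and Jund were higher, as was Nr4a1 by the least. At an adjusted p under 0.05, 6 of 10 genes were lower and 3 higher, where 26.2% of all tested genes were called lower and 24.2% higher. All but Batf3 had a mean of at least 10 CPM, and of the 8763 tested genes at that level 2053 were lower and 2928 higher. With an absolute log2-fold change over 1 required as well, 2 of the 10 were lower, beside 11.8% of all genes and 412 of those 8763. The count past both thresholds in the higher direction was 0 with edgeR and with DESeq2, beside 1.56% of all genes, although all 10 had an unadjusted edgeR p under 0.05. CPM of the genotypes did not overlap for 7 genes lower and 3 higher in TNFR2 KO, and the same was so for 37.7% and 36.4% of all genes. The median log2-fold change of the 10 genes was −0.19, beside −0.003 over all tested genes. Directions depended on the scaling: when the NK lineage genes set the scale instead of TMM, the median of all genes moved to −0.77, 86.5% of them were called lower and 1.11% higher, and the 10 genes split into 10 lower and 0 higher, with 4 past both thresholds where 26.6% of all genes were. A change of scale shifts all genes by nearly the same amount, so their order relative to that median had to be kept. Junb lay 0.25, Jund 0.40 and Nr4a1 0.12 above that median.

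**Figure D1:**
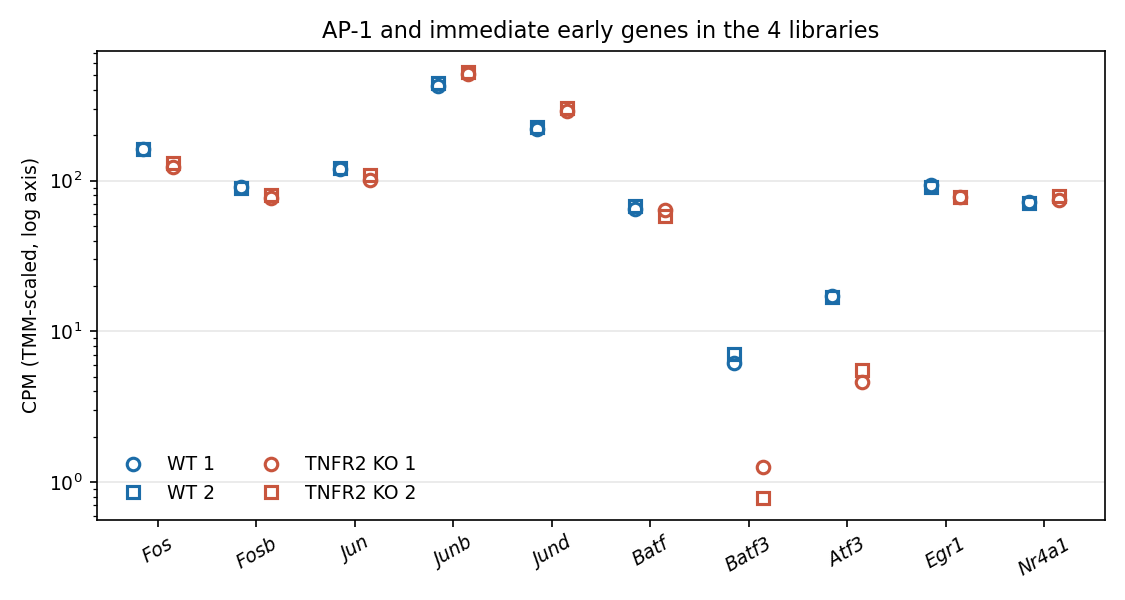
TMM-scaled CPM (log axis) of the 10 genes in each of the 4 libraries, with circles for replicate 1 and squares for replicate 2, wild-type in blue and TNFR2 KO in red. The genotypes are far apart only for Batf3 (6.20 and 7.05 against 1.27 and 0.780 CPM) and Atf3 (17.2 and 16.8 against 4.63 and 5.56 CPM).

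**Figure D2:**
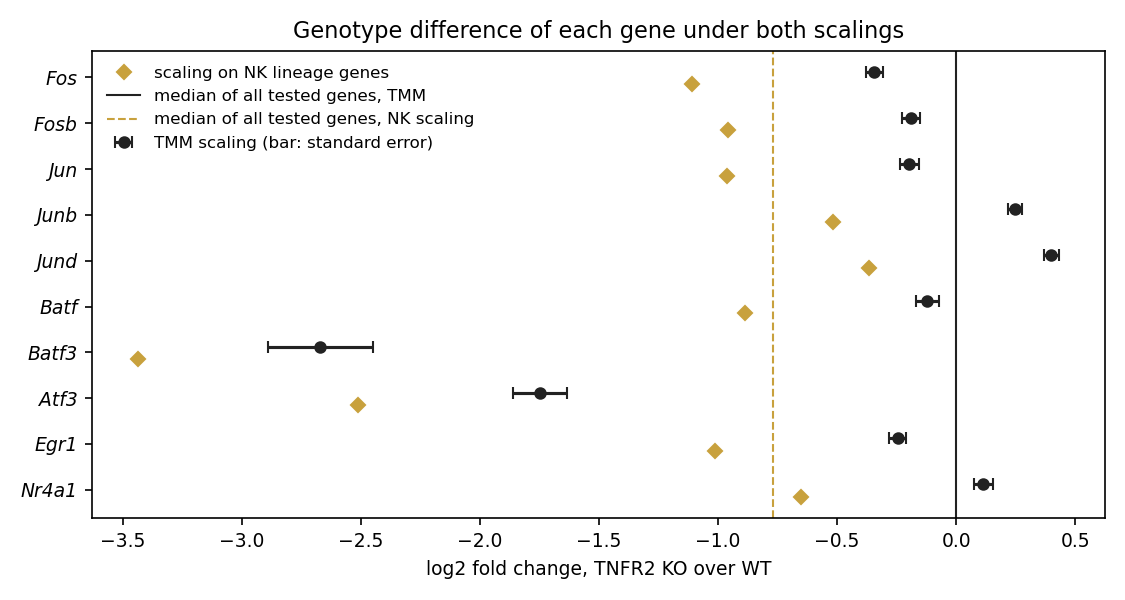
Log2-fold change (TNFR2 KO relative to wild-type) of each gene under TMM scaling (black, bars 1 SE) and under scaling on NK lineage genes (gold), with the median of all tested genes under each as a vertical line. Junb, Jund and Nr4a1 lie above 0 under TMM and below 0 but above the median of all genes (−0.77) under the other scaling.

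Fos encodes c-Fos, the Fos subunit that is induced and lost fastest after a stimulus (chr12:85473890-85477273, plus strand). It measured 161.5 and 162.0 CPM in wild-type and 123.3 and 131.8 CPM in TNFR2 KO. Both TNFR2 KO libraries lay below both wild-type libraries, and the wild-type pair was the closer one. The means were 161.7 ± 0.349 and 127.5 ± 6.01 CPM (SD, n = 2 each), a 1.27-fold lower level in TNFR2 KO with a log2-fold change of −0.34 (SE 0.0354, adjusted p = 5.27e-06). Of all tested genes 23.0% had a lower log2-fold change, so the fall of Fos was well inside the range of the whole table. Within the 2 pools of spleens the log2 ratio of Fos was −0.39 and −0.30.

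Fosb encodes FosB, the Fos protein whose truncated splice form ΔFosB accumulates on repeated stimulation (chr7:19302696-19310051, minus strand), and the table sums its splice forms. It measured 90.1 and 89.2 CPM in wild-type and 77.1 and 80.1 CPM in TNFR2 KO. Again both TNFR2 KO libraries were the lower ones, by less than for Fos, with a log2-fold change of −0.19 (SE 0.0374, adjusted p = 0.00107) and ratios of −0.22 and −0.15 within the pools. The 250 bases before the RefSeq start of Fos (chr12:85473640-85473889, plus strand, GRCm38.p6) and of Fosb (chr7:19310046-19310295, minus strand) are printed 5′ to 3′ because both genes moved together, with TGACG, the core of the cAMP response element that CREB and ATF proteins bind, in capitals. Read on either strand, TGACG was found in 17.8% of the 32851 RefSeq windows of this length and in 6 of the 9 windows that matched these 10 genes.
Fos: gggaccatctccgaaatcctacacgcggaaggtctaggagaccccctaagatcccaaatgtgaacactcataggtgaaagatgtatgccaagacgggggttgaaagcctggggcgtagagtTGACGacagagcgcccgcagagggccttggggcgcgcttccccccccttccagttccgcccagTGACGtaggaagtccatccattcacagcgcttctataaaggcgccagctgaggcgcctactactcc
Fosb: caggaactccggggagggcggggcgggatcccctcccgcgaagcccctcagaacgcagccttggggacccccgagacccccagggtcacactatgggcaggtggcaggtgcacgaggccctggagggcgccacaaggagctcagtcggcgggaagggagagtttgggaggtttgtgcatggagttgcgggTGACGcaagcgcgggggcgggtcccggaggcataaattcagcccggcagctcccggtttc
Fos held the core at 129 to 125 and at 66 to 62 bases before its start, and Fosb at 60 to 56 bases. Neither window held the whole palindrome TGACGTCA, which contains TGACG and was in 1.55% of all windows, nor TGACTCA or its reverse complement TGAGTCA, the AP-1 site itself, which was in 4.46%. The CArG box of serum response factor was searched as a perfect match and was in 1.47% of all windows and in none of these 9. Only these 250 bases were searched and Egr1 had no window, so whether the genes have such a box further upstream cannot be read from this.

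Jun encodes c-Jun, the Jun subunit that JNK phosphorylates (chr4:95049034-95052222, minus strand). It measured 119.2 and 122.1 CPM in wild-type and 101.7 and 109.1 CPM in TNFR2 KO, so that the genotypes were separate. The log2-fold change was −0.20 (SE 0.0388, adjusted p = 0.00111), and it was −0.23 and −0.16 within the pools. Jun overlaps the antisense gene Junos, with which it shares 6.39% of its 31-base stretches, and the sources used here do not say whether the counting used strand.

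Junb moved the other way. Its product JunB is a weaker activator than c-Jun at single AP-1 sites and can act against it (chr8:84974484-84978718, minus strand). It measured 424.4 and 446.6 CPM in wild-type and 509.6 and 525.0 CPM in TNFR2 KO. Both TNFR2 KO libraries were above both wild-type libraries, with a log2-fold change of 0.25 (SE 0.0293, adjusted p = 1.79e-05) that became −0.52 when scaled on NK lineage genes. Within the pools the log2 ratios of Junb were 0.26 and 0.23. Junb shares 6.51% of its 31-base stretches with Prdx2 on the other strand.

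Jund encodes JunD, the Jun protein that resting cells already contain and that mitogens induce least (chr8:70698949-70700616, plus strand). It measured 221.5 and 227.4 CPM in wild-type and 289.2 and 303.4 CPM in TNFR2 KO. It had the largest increase of the 10 genes under TMM, with a log2-fold change of 0.40 (SE 0.0305, adjusted p = 3.35e-07) and pool ratios of 0.38 and 0.42, and it stood at −0.37 when scaled on NK lineage genes. Of all tested genes 89.1% had a lower log2-fold change. The count of Jund is uncertain because 50.1% of its 31-base stretches also lie in Gm11175, a gene annotated on the other strand that has no row in the table. The windows before the starts of Jun (chr4:95052223-95052472, minus strand) and Junb (chr8:84978749-84978998, minus strand) are set side by side because these genes moved in opposite directions, with matches in capitals.
Jun: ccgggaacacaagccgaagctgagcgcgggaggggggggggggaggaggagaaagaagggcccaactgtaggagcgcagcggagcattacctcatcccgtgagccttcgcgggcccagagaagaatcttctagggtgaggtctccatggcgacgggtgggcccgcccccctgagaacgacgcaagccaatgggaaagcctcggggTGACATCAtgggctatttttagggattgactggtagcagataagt
Junb: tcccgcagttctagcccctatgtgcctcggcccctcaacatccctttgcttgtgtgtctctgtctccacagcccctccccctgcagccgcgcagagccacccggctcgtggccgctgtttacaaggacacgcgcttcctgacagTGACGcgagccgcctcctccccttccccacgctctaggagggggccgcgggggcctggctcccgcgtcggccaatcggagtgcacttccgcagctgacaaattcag
Jun held TGACATCA, the variant of the AP-1 site known from its own promoter and found in 2.93% of all windows, at 45 to 38 bases before the start, and no TGACG. Junb held TGACG at 106 to 102 bases and no TGACATCA. TGACG was also in the windows of Fos, Fosb and Atf3, which were lower, of Batf, which was not called, and of Nr4a1, which was higher. The window of Jund (chr8:70697489-70697738, plus strand) held none of the motifs searched. It lies upstream of position 70698949, where the gene span given above starts, and the bases just before that position were not searched. Whether these matches bear on the directions was not tested.

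Batf, which encodes the BATF protein of activated T, B and NK cells (chr12:85686669-85709087, plus strand), was the 1 gene without a call. It measured 65.3 and 67.7 CPM in wild-type and 63.9 and 58.2 CPM in TNFR2 KO. The genotypes did not overlap, but the pool ratios were uneven, at −0.03 and −0.22, and the log2-fold change of −0.12 (SE 0.0493) had an adjusted p of 0.0594. With the spleen pool as a replicate block the adjusted p was 0.0437, and without TNFR2 KO replicate 1 it was 0.00414. Leaving out TNFR2 KO replicate 2 brought it to 0.452.

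Batf3, a relative that conventional dendritic cells of the cross-presenting type need for their development (chr1:191097847-191108945, plus strand), fell the most. It measured 6.20 and 7.05 CPM in wild-type and 1.27 and 0.780 CPM in TNFR2 KO, from 235 and 260 counts against 49 and 25. Every TNFR2 KO value was far below every wild-type value, and the means of 6.62 ± 0.605 and 1.02 ± 0.344 CPM (SD, n = 2 each) gave a 6.36-fold lower level, with a log2-fold change of −2.67 (SE 0.219, adjusted p = 6.57e-07). The pool ratios were −2.29 and −3.18, and leaving out 1 library at a time gave −3.07 to −2.38. Of all tested genes 4.59% had a lower log2-fold change.

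Batf3 is itself one of the dendritic cell or class II markers, so that list was read beside it. Of its 13 tested genes, Batf3 included, 7 were lower, 2 higher and 4 not called, with a median log2-fold change of −2.61, and its summed level was 2574 to 2612 CPM in wild-type against 1628 to 1659 CPM in TNFR2 KO. Without Irf8 and Itgax, the 2 that were higher, the sum was 1769 to 1806 CPM in wild-type and 154.8 to 156.2 CPM in TNFR2 KO. Both genes were left out because they rose, so this sum had to fall more than that of the whole list, and it still holds Batf3. The class II chaperone Cd74 fell from 906.8 and 925.8 to 78.4 and 75.3 CPM. Clec9a, a receptor of cross-presenting dendritic cells, fell from 1.63 and 1.52 to 0.233 and 0.281 CPM, a log2-fold change of −2.61. The 4 genes not called were low everywhere, as Clec9a was. Xcr1 measured 0.501 and 0.407 against 0.0776 and 0.406 CPM (adjusted p = 0.259). Zbtb46, which lay above Clec9a, measured 2.93 and 2.52 against 2.61 and 2.68 CPM (log2-fold change −0.04, adjusted p = 0.878). Flt3 and Siglech had adjusted p of 0.116 and 0.364. Of this list only Cd209a was too low to test. Irf8, the partner of Batf3 in dendritic cells and a gene that NK cells express as well, was higher, at 386.2 and 396.9 CPM in wild-type and 589.4 and 596.4 CPM in TNFR2 KO. How far cells other than NK cells supplied the Batf3 counts was not tested.

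Atf3, a stress-induced bZIP factor that represses many inflammatory genes (chr1:191170296-191218039, minus strand), measured 17.2 and 16.8 CPM in wild-type and 4.63 and 5.56 CPM in TNFR2 KO. These values rest on 654 and 619 counts against 179 and 178. The genotypes were well apart, with means of 17.0 ± 0.321 and 5.09 ± 0.657 CPM (SD, n = 2 each), a 3.35-fold lower level, and a log2-fold change of −1.75 (SE 0.113, adjusted p = 7.09e-08). The pool ratios were −1.90 and −1.60, leaving out 1 library at a time gave −1.87 to −1.60, and 8.51% of all tested genes had a lower log2-fold change. Macrophages also express Atf3 when stimulated, and the macrophage gene Csf1r stood at 254.2 and 255.5 CPM in wild-type but at 27.4 and 26.7 CPM in TNFR2 KO, with Lyz2 at 771.5 and 777.7 against 114.0 and 110.4 CPM. Their part in the difference of Atf3 was not tested.

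Batf3 and Atf3 both lie on chromosome 1, 61350 bases apart. The windows before their RefSeq starts (chr1:191098164-191098413, plus strand, for Batf3 and chr1:191183334-191183583, minus strand, for Atf3) are given because both fell past both thresholds. Both windows lie inside the gene spans given above, whose starts are annotated further upstream.
Batf3: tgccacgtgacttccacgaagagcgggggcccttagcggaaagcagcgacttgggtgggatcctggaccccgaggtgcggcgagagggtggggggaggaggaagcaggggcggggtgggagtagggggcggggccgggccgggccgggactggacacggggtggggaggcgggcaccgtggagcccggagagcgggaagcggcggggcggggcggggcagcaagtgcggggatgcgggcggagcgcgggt
Atf3: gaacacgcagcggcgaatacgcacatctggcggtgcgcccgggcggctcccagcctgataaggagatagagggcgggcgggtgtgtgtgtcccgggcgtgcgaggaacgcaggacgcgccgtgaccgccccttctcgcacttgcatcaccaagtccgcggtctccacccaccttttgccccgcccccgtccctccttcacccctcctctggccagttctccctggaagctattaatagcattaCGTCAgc
Batf3 held none of the 5 motifs searched in a window of 76.0% G and C, and Atf3 held TGACG on the opposite strand, read as CGTCA here in capitals, at 7 to 3 bases before the start. The tested neighbours of the pair, named after their values were seen, were uneven. Flvcr1 was lower (log2-fold change −0.60, adjusted p = 6.51e-06), and so was Tatdn3 (−0.77, adjusted p = 0.0186). Nsl1 (−0.02, adjusted p = 0.805) and Nenf (−0.25, adjusted p = 0.213) were not called. Fos and Batf share chromosome 12 at a distance of 209395 bases, and between them Jdp2, a bZIP repressor of AP-1, was at −0.15 with an adjusted p of 0.0661.

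Egr1 encodes a zinc finger factor that serum response factor and its ETS partners induce, and it lies on chromosome 18. It measured 93.0 and 91.4 CPM in wild-type and 77.6 and 77.9 CPM in TNFR2 KO. The replicates of each genotype were close and the genotypes separate, with a log2-fold change of −0.25 (SE 0.0358, adjusted p = 0.000106) and pool ratios of −0.26 and −0.23. Nr4a1 encodes the orphan nuclear receptor Nur77, which reports antigen receptor signalling in lymphocytes (chr15:101254269-101274795, plus strand). It measured 71.7 and 70.8 CPM in wild-type and 74.9 and 79.5 CPM in TNFR2 KO. The genotypes did not overlap, but the log2-fold change of 0.11 (SE 0.0413, adjusted p = 0.0365), with pool ratios of 0.06 and 0.17, was the smallest call of the group and became −0.65 when scaled on NK lineage genes. Its call was lost with DESeq2 (adjusted p = 0.172) and without wild-type replicate 1 (0.0601), wild-type replicate 2 (0.102) or TNFR2 KO replicate 2 (0.217).

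Levels were compared between genes as CPM per kilobase of the mean annotated transcript length. On this scale Junb was the most abundant of the 10 genes in both genotypes, at 378.5 ± 13.6 in wild-type and 449.6 ± 9.46 in TNFR2 KO (SD, n = 2 each). In wild-type Fos followed at 148.1 ± 0.320 and Jund at 134.6 ± 2.49, and in TNFR2 KO their order was turned, with Jund at 177.6 ± 6.002 and Fos at 116.8 ± 5.50. No neighbours in the order of the 10 genes overlapped between their replicates in either genotype. Batf came next at 89.4 in wild-type and 82.0 in TNFR2 KO, then Nr4a1 at 45.5 and 49.3, Jun at 37.8 and 33.05, Fosb at 27.4 and 24.0 and Egr1 at 24.5 and 20.7. Atf3 and Batf3 were the lowest, at 11.6 and 8.96 in wild-type and 3.47 and 1.38 in TNFR2 KO. On this scale the ranks other than those of Fos and Jund were the same in both genotypes. Several orders rest on the length used. With the longest transcript as length Jund was second in both genotypes, and Fos was above Batf in wild-type (76.7 against 69.6) but below it in TNFR2 KO (60.5 against 63.9). On that length Jun was above Nr4a1 in wild-type (37.8 against 27.9) and in TNFR2 KO (33.05 against 30.2).

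Within the families the make-up per kilobase was described without a test. Junb made up 68.4% and 69.0% of the Jun family in wild-type and 68.3% and 67.9% in TNFR2 KO. The share of Jun was 6.93% and 6.81% in wild-type and 4.92% and 5.09% in TNFR2 KO, and that of Jund was 24.6% and 24.2% in wild-type and 26.7% and 27.0% in TNFR2 KO. Fos made up 84.3% and 84.5% of Fos and Fosb together in wild-type and 82.7% and 83.1% in TNFR2 KO. Batf3 was 8.72% and 9.49% of Batf and Batf3 together in wild-type and 1.96% and 1.33% in TNFR2 KO. These shares are ratios within a library, so no scaling between libraries enters them.

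**Figure D3:**
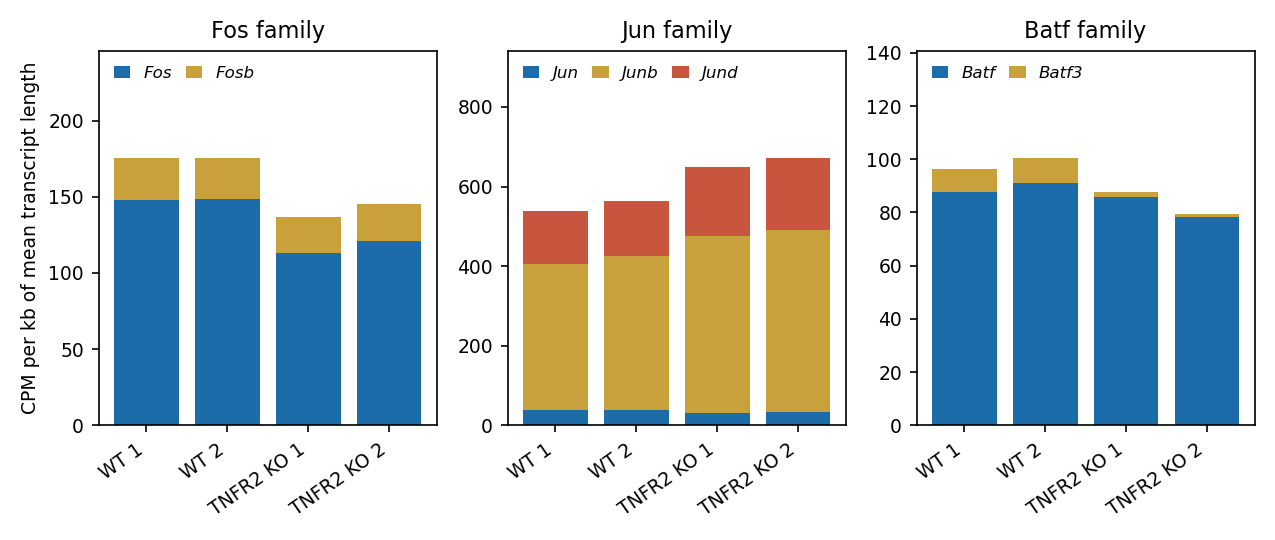
CPM per kilobase of mean transcript length in each of the 4 libraries, stacked by gene for the Fos, Jun and Batf families, each panel with its own axis from 0. Junb is the largest part of the Jun family in every library (67.9% to 69.0%), and Batf3 is 8.72% and 9.49% of its panel in wild-type and 1.96% and 1.33% in TNFR2 KO.

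Other bZIP factors showed a wider spread than the 10 genes. Of 33 tested AP-1 relatives 15 were lower, 7 higher and 11 not called, with a median log2-fold change of −0.15, and 7 were past both thresholds in the lower direction. Beside this list and those that follow, 26.2% of all tested genes were lower, 24.2% higher and 11.8% lower past both thresholds. The largest fall was that of Cebpa, the myeloid factor C/EBPα, from 39.9 ± 2.60 to 2.31 ± 0.00635 CPM (SD, n = 2 each; log2-fold change −4.11, SE 0.0930, adjusted p = 2.68e-12). Batf2, an interferon-induced relative of Batf and Batf3, fell from 28.3 to 3.07 CPM, and Nfe2, a factor of erythroid cells and megakaryocytes, from 18.0 to 5.78 CPM. Cebpb, Cebpd and Cebpe were past both thresholds as well, and Cebpe is also on the granulocyte marker list. The most abundant relatives changed little: Atf4, the effector of the integrated stress response, and Atf6, a sensor of the unfolded protein response, had log2-fold changes of 0.08 (adjusted p = 0.0241) and 0.13 (adjusted p = 0.00745), and Xbp1, a further factor of that response, −0.13 (adjusted p = 0.00520). When scaled on NK lineage genes Atf4 and Atf6 were at −0.68 and −0.63.

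Other immediate early genes went both ways. Of 40 tested genes 15 were lower, 18 higher and 7 not called, 3 were past both thresholds in the lower direction, and the median log2-fold change was 0.03. Ier3, a target of NF-κB, fell from 17.0 ± 1.47 to 3.73 ± 0.196 CPM (SD, n = 2 each; log2-fold change −2.19, adjusted p = 1.21e-08), and the pseudokinase gene Trib1 from 22.0 to 9.98 CPM (−1.15). Klf4, the third gene past both thresholds, had −1.65. Dusp4, a phosphatase of ERK and JNK, fell from 37.0 to 23.5 CPM (−0.66). Among the higher genes Btg1, an antiproliferative gene of resting lymphocytes, went from 383.4 to 560.6 CPM (0.55, adjusted p = 2.39e-09) and Pim1, a kinase gene induced by cytokines, from 493.4 to 549.3 CPM (0.15). Mcl1, which encodes a survival protein, was at −0.03 (adjusted p = 0.390). In the families of Egr1 and Nr4a1, named for that kinship after their values were seen, Nr4a2 rose from 17.7 to 30.3 CPM (0.78, adjusted p = 3.92e-07) and Nr4a3 was at 0.25 (adjusted p = 0.0214), while Egr2 (−0.36, adjusted p = 0.0949) and Egr3 (0.07, adjusted p = 0.483) were not called. Egr4 was too low to test. When scaled on NK lineage genes Btg1 and Pim1 were at −0.22 and −0.61, and Nr4a2 was at 0.01 (adjusted p = 0.857).

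Kinases and activators upstream of these genes ranged in log2-fold change from −0.83 to 0.49. Of 35 tested genes 6 were lower, 14 higher and 15 not called, 0 were past both thresholds with edgeR or DESeq2 although 21 had an unadjusted edgeR p under 0.05, and the median log2-fold change was 0.06. The lowest value was that of Mef2c, a calcium-regulated activator named after its value was seen, which fell from 13.2 and 11.0 to 6.82 and 6.74 CPM (adjusted p = 0.000101). Elk3, a partner of serum response factor, had the largest increase of those named, from 90.5 to 127.4 CPM (log2-fold change 0.49, adjusted p = 1.51e-07), and its relative Elk1 was lower, from 15.4 to 12.01 CPM (−0.36, adjusted p = 0.00419). The ERK gene Mapk3 was at 0.37 (adjusted p = 4.32e-06), the ERK-activated kinase gene Rps6ka1 at 0.35, and the NFAT genes Nfatc1 and Nfatc3 at 0.35 and 0.29. Of 14 partners and repressors 2 were lower, 5 higher and 7 not called, with 0 past both thresholds by either tool. An unadjusted edgeR p under 0.05 was found for 8 of the 14, beside the 5457 of 8763 genes given above. Rxra, a nuclear receptor that pairs with Nr4a1, fell from 65.7 to 44.1 CPM (−0.58), while its relative Rxrb was at 0.32. Nab1 and Nab2, corepressors of EGR proteins, were at 0.03 (adjusted p = 0.334) and 0.19 (adjusted p = 0.00234), and the corepressor gene Ncor1 was at 0.14. When scaled on NK lineage genes, every gene named here with a call in the higher direction was below 0.

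Heat shock genes, which respond to handling as immediate early genes do, were more often lower than higher in TNFR2 KO. Of 12 tested genes 7 were lower, 3 higher and 2 not called, with a median log2-fold change of −0.11. Over all tested genes 26.2% were lower and 24.2% higher. DESeq2 called 5 of the 12 lower and 2 higher. When scaled on NK lineage genes all 12 were called lower, as were 86.5% of all tested genes. The median of the 12 was then −0.88, beside −0.77 over all genes. The abundant chaperone genes Hsp90aa1 and Hsp90ab1 had log2-fold changes of −0.36 and −0.23, and the mitochondrial Hspd1 −0.35. The inducible Hspa1b was at −0.97 with a low level of 13.8 against 7.05 CPM, and 68.1% of its 31-base stretches are shared with other genes, mostly with Hspa1a. Hspa8, the constitutive member, was at 0.16 and Dnajb4 at 0.58, and both were below 0 when scaled on NK lineage genes. What part their difference had in the levels of the immediate early genes was not tested.

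**Figure D4:**
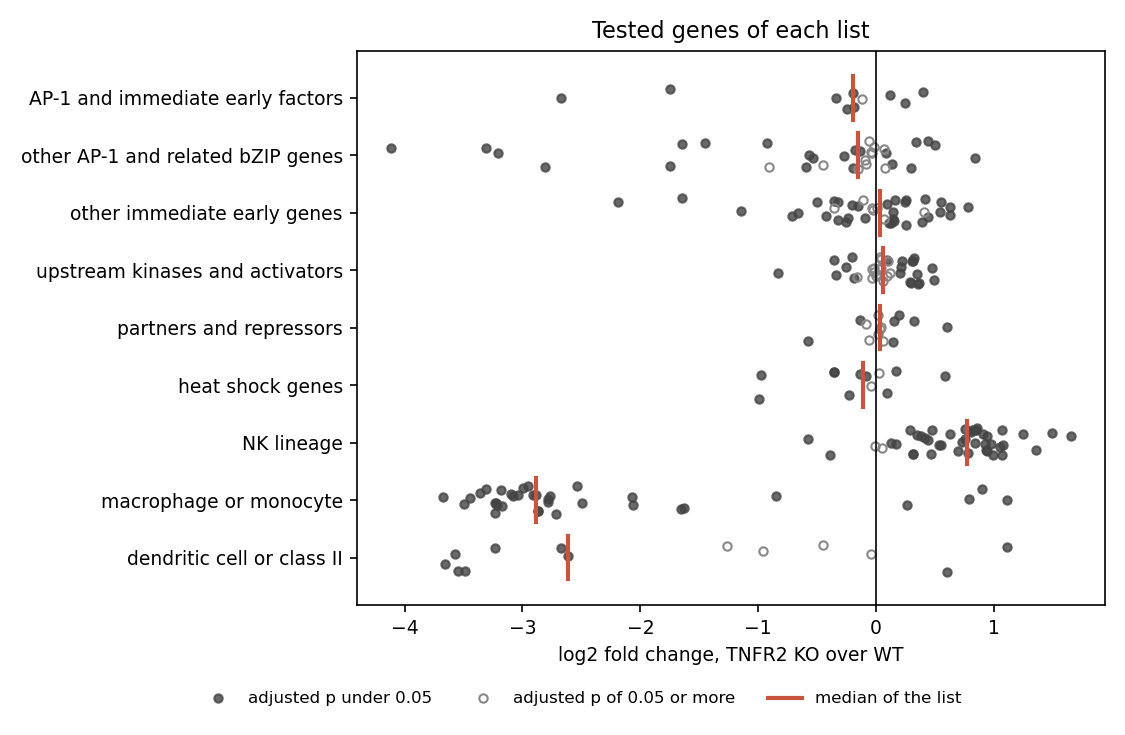
Log2-fold change (TNFR2 KO relative to wild-type) under TMM scaling for every tested gene of each list, 1 point per gene (vertical scatter is for display), filled where the adjusted p is under 0.05, with the list's median as a red bar and the median of all tested genes (−0.003) as a black line. The AP-1 and immediate early factors centre on −0.19, close to the other bZIP genes (−0.15), while NK lineage genes centre on 0.77 and macrophage or monocyte genes on −2.89; scaled on NK lineage genes the whole picture shifts down by about the −0.77 of the median gene.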

How the data were processed

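Bulk RNA-seq of 4 libraries was used. Per the labels, the authors made stranded poly-A libraries, trimmed the paired-end reads with Trimmomatic 1.4 and assigned them to mm10 transcripts with kallisto 0.46.1, and, as their methods say, added them up by gene with tximport. The authors deposited the resulting estimated counts (expected counts) by gene symbol, unscaled between libraries. Which transcript annotation they used is not stated in the sources read here. Estimates of this kind can divide reads between genes that share sequence, so shared 31-base stretches were counted in GENCODE transcripts on GRCm38.

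Counts were rounded to whole numbers. A row with no gene name, 0.0559% to 0.0728% of the counts, was left out. Genes kept by filterByExpr were scaled with TMM and tested with edgeR 4.0.16 (R 4.3.3; genotype as the only term), with calls at an adjusted p under 0.05, or with an absolute log2-fold change over 1 as well. The biological coefficient of variation was 3.33%. With 2 libraries against 2, an exact two-sided permutation test cannot go below p = 0.333, so none was used. The scripts were tested on simulated data. Alternatives were DESeq2 1.42.0, 4 other scalings, 2 other filters, the longest transcript as length, each library left out in turn, and the spleen pool as a replicate block. According to the labels a number marks 1 pool of spleens, which pairs the libraries. Across genes, the correlation between such partners' deviations from the mean of their genotype was 0.0243. Promoter windows of 250 bases come from RefSeq (GRCm38.p6), which matched 9 of the 10 genes, all but Egr1. Gene spans come from GENCODE, so the RefSeq start behind a window can differ from the start of the span printed. Motifs were searched on both strands as exact letters. Plots were drawn with matplotlib 3.10.9 under Python 3.11.15.

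The 10 genes and all gene lists were chosen with earlier results of these data known. Named genes are these 10, Tnfrsf1b, and of each list the 3 most abundant genes and up to 4 called genes of at least 10 CPM with the largest absolute log2-fold change, of which 2 are not reported here; marker genes and others outside this rule were chosen after their values were seen.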

Additional observations from a re-analysis of the deposited data

Results flagged for a closer look

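The row of the table that carries no gene name took a larger share of the counts in TNFR2 KO than in wild-type. It held 0.0716% and 0.0728% of all counts in TNFR2 KO replicates 1 and 2, against 0.0559% and 0.0561% in the wild-type libraries. The row entered no comparison, it was singled out because its level in TNFR2 KO lies above that of the controls, and the table does not say which transcripts it sums. No group had enough libraries to test for a library that stands apart from the others.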

How the results depend on the processing

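Of 119 log2-fold changes of the 10 genes under an alternative, 104 kept their direction and their side of the threshold, 6 gained a call, 6 lost one and 3 turned. All 3 that turned came from scaling on NK lineage genes, with Junb at −0.52, Jund at −0.37 and Nr4a1 at −0.65. That scaling lowered the log2-fold changes of the 10 genes by nearly the same amount. It called 10 of the 10 genes lower and 0 higher, 4 past both thresholds, 34 upstream genes and 14 partners. Of all tested genes it called 86.5% lower, and 26.6% lower past both thresholds. It also turned Atf4 (−0.68), Atf6 (−0.63), Pim1 (−0.61), Btg1 (−0.22), Nfatc3 (−0.48), Rps6ka1 (−0.42), Elk3 (−0.27), Mapk3 (−0.40), Nfatc1 (−0.41), Irf8 (−0.17), Ncor1 (−0.63), Nab1 (−0.73), Rxrb (−0.45), Nab2 (−0.58), Hspa8 (−0.60) and Dnajb4 (−0.18). Nab1, not called, was also at −0.026 by library size alone and at −0.0015 with a mean of at least 10 CPM. That filter removed Batf3, which left 1 gene past both thresholds. Batf gained a call by library size alone (adjusted p = 0.00886), without a filter (0.0325) and at 10 CPM (0.00969), and had 0.249 with DESeq2. Nr4a1 lost its call by library size alone (0.314) and at 10 CPM (0.114). With the replicate block 7 genes were lower and 3 higher, and among the 10 genes it changed no call other than that of Batf. It called 21 upstream genes and 9 heat shock genes, where the test without it called 20 and 10. DESeq2 called 6 lower and 2 higher. It called 18 AP-1 relatives, 26 other immediate early genes, 15 upstream genes, 5 partners and 7 heat shock genes. The main test called 22, 33, 20, 7 and 10 of these. With DESeq2 the calls of Elk1 (adjusted p = 0.0534) and Atf4 (0.0679) were lost. By library size alone those of Atf4 (0.542) and Atf6 (0.111) were lost, and at 10 CPM that of Atf4 (0.157). Leaving out 1 library at a time gave 6 to 7 lower, 2 to 3 higher and 2 past both thresholds. Lengths from the longest transcript gave wild-type levels per kilobase of 76.7 for Fos, 23.7 for Fosb, 240.7 for Junb, 69.6 for Batf, 5.97 for Batf3, 8.58 for Atf3, 20.6 for Egr1 and 27.9 for Nr4a1. Depth limits Batf3 most, at 25 and 49 counts in TNFR2 KO.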
